A study of Mus musculus with 166 samples.

Results

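Axon guidance ligands and receptors were followed in the cerebellum of mice that carry a lengthened CAG repeat in Htt, the gene mutated in Huntington disease. The genes were chosen by symbol: semaphorins of classes 3 to 7 and their plexin and neuropilin receptors, ephrins and Eph receptors, Slits and Robos, netrins, netrin-G and their Dcc and Unc5 receptors, and the Flrt proteins. Of 76 such symbols in the count table, 71 reached 0.5 CPM (a gene's counts scaled to the library total) in at least 8 libraries, among 16525 genes that did so. The 5 that did not were Efna4, Ntn5 and the antisense transcripts Plxna4os1, Plxna4os2 and Plxna4os3. All 71 genes passed through the same limit on low values as the other genes, which looks at all libraries and not at any one group.

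Guidance ligands tell growing axons and migrating neurons to advance, turn or retract, through receptors whose intracellular parts act on small GTPases and the cytoskeleton. Class 3 semaphorins are secreted and bind neuropilins that pair with plexins, while most other semaphorins bind plexins directly. Ephrins and Eph receptors sit on opposing cell surfaces and can signal in both directions, Slits are secreted ligands of Robos, and netrins act through Dcc and Unc5 receptors. Flrt proteins bind Unc5 receptors and latrophilins, and netrin-G proteins bind the NGL proteins, such as the product of Lrrc4c. In the developing cerebellum several of these genes steer granule cells and Purkinje axons, and in the adult many persist at synapses.

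Cerebellar mRNA was sequenced from heterozygous knock-in mice and wild-type mice on the C57BL/6 background. The groups were WT mice and mice with 1 knock-in allele in the lines Q20, Q80, Q92, Q111, Q140 and Q175, named for their CAG length, and WT and Q20 mice served together as controls. Q175 arose by spontaneous expansion in the Q140 line, whereas the other lines carry separately made alleles, so a line differs in more than its CAG length, and the WT mice were littermates of Q20. Mice were sampled at 2, 6 and 10 months, with 8 libraries in each of the 21 groups of line and age, except 7 for Q111 and 7 for Q140 at 10 months, and both sexes in each. Total counts per library ranged from 23448884 to 43066066, so that 0.5 CPM stood for 11.7 to 21.5 counts.

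Libraries differed in the balance of long and short transcripts. In 23 of 166 libraries long transcripts were low relative to short ones (length index under -0.06), 16 of them at 2 months, 3 at 6 months and 4 at 10 months. None of the Q175 libraries of 6 or 10 months was among them. The guidance genes are long, with a median merged exon length of 6855 bases, against 4182 bases for the 16314 genes tested that have one. Results are therefore given with and without these libraries. In 2 libraries the sex-linked genes went against the labelled sex, and these libraries stayed in the main fits. The cerebellar markers Calb1 and Car8 of Purkinje cells and Cbln1 and Cbln3 of granule cells were abundant in every library (at least 720, 920, 371 and 911 CPM).

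In WT cerebellum of 10 months the guidance genes spanned from 0.258 FPKM for Robo3 to 57.7 ± 4.9 FPKM for Sema7a (SD, n = 8). FPKM, fragments scaled by transcript length and library depth, is the scale on which genes of different length can be set side by side. The median over the 71 genes was 4.41 FPKM, against 7.61 FPKM over all genes tested. After Sema7a, a membrane-anchored semaphorin that binds integrins and plexin C1, came Sema6d with 37.9 ± 3.01 FPKM, Plxnb2 with 30.3 ± 3.26 FPKM and Sema4g with 26.1 ± 1.8 FPKM. Unc5b (21.3 ± 2.34 FPKM), Efnb3 (19.1 ± 2.12 FPKM), Sema6c (18.4 ± 1.5 FPKM), Plxna3 (17.5 ± 2.02 FPKM), Sema4f (17.1 ± 1.82 FPKM) and Sema4d (16.6 ± 1.06 FPKM) completed the 10 highest. From Efnb3 down, each of these means lay within the SD of its neighbour. Of the 71 genes, 18 were at 10 FPKM or more and 7 below 1 FPKM, among them the netrin receptor Dcc with 0.369 ± 0.133 FPKM and Slit1 with 0.297 ± 0.15 FPKM.

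**Figure D1:**
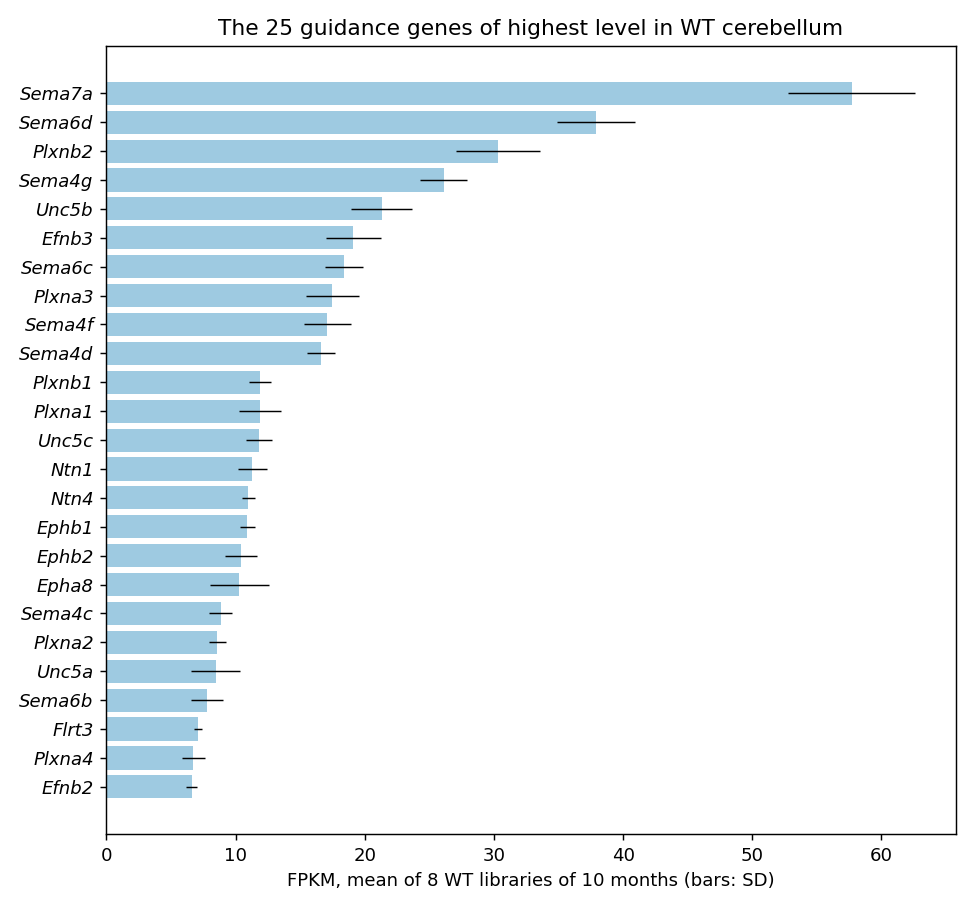
Level of the 25 most abundant guidance genes in WT cerebellum of 10 months, as FPKM (x axis); bars are means of 8 libraries and lines their SD. Sema7a stands at 57.7 FPKM, above Sema6d at 37.9 FPKM and Plxnb2 at 30.3 FPKM.

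The promoters of 4 of the genes that the comparison of Q175 with controls turns on are shown, Epha7, Flrt3 and Sema5a, which were higher, and Sema7a, which was lower. Each is the stretch of 250 bases before the RefSeq start of transcription on GRCm38.p6, 5′ to 3′ on the gene's strand, and capitals mark the GC box letters GGGCGG on either strand, the core of sites bound by Sp factors. Epha7 (chr4:28812881-28813130, plus strand), Flrt3 (chr2:140671477-140671726, minus strand), Sema5a (chr15:32244563-32244812, plus strand) and Sema7a (chr9:57939862-57940111, plus strand) end at the RefSeq start, which for Sema5a is 3 bases inside the first exon of GENCODE and for Flrt3 is 7 bases before it.
Epha7: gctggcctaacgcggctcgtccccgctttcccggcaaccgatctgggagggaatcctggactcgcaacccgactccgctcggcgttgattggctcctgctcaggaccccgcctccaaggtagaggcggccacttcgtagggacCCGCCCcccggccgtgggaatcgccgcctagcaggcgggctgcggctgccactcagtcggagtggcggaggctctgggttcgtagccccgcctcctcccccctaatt
Flrt3: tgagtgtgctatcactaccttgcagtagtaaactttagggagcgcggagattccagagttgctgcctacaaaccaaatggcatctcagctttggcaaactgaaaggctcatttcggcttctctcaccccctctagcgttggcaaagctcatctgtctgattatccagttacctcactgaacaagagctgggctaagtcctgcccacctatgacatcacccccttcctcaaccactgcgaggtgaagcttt
Sema5a: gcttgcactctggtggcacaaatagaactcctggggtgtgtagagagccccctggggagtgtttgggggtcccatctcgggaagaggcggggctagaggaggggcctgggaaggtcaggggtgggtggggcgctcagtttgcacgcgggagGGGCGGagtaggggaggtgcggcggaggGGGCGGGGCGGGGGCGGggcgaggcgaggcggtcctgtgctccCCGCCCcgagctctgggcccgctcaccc
Sema7a: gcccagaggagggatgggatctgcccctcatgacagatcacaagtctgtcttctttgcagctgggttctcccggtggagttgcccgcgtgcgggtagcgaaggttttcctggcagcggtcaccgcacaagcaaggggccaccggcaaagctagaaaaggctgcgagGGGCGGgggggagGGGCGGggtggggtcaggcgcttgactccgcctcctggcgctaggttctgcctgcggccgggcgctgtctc

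These 4 promoters were not alike. That of Sema5a holds 5 GC boxes, some overlapping, that of Sema7a 2, that of Epha7 1 and that of Flrt3 none, with a share of G and C of 72% for Sema5a, 66.4% for Sema7a, 69.2% for Epha7 and 50% for Flrt3. A promoter entry was found for 60 of the 71 guidance genes, and 43 of these (71.7%) hold GGGCGG within the 250 bases, against 32.7% of the 32851 promoter stretches of the same length in the table. The guidance gene promoters have a median G and C share of 64.6%, against 52.4% for all. The sets differ in more than gene family, here and in the shares that follow. The guidance set has 1 entry for each gene, and all of its genes passed the limit on low values. The set of all stretches holds every entry, also several of the same gene, whether or not the gene passed that limit. The CRE letters TGACGTCA were found in 1 of the 60 (1.7%, against 1.5% of all), the E-box CACGTG in 3 (5%, against 6%), and the EGR letters GCGTGGGCG, which can overlap a GC box, in 2 (3.3%, against 0.5%), each searched on both strands. A match to these letters is a description of the sequence and not a bound site.

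At 10 months 18 of the 71 guidance genes differed between Q175 and controls (edgeR, adjusted p under 0.05 over 16525 genes), 10 of them higher and 8 lower. The 10 higher ones are 14.1% of the 71, where 5.6% of all genes tested were called higher, and the 8 lower ones are 11.3%, where 7.16% of all genes were called lower. The genes did not move as a body: their median log2 change was -0.022, beside -0.00498 for all genes. The higher ones were Epha7, Flrt3, Sema5a, Ephb1, Plxna2, Sema3a, Epha3, Sema6a, Slit3 and Robo1, and the lower ones Sema7a, Ntng1, Sema3f, Sema4a, Efnb3, Sema3c, Slit2 and Epha2. Without the libraries of low length index 30 guidance genes were called, 16 higher and 14 lower, where 26.2% of all genes were. In tissue RNA, fewer cells of a type and less RNA per cell cannot be told apart.

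Epha7, a receptor of ephrin-A ligands whose activation commonly repels axons, had 33.4, 38.5 and 45.1 CPM (lowest, median and highest of 8) in Q175 mice, against 25.7, 30.5 and 32.5 CPM in the 16 controls. All 8 Q175 libraries lay above the highest control, and the log2 change was 0.34 ± 0.051 (SE, adjusted p = 2.04e-06). Flrt3, a cell surface ligand of Unc5 receptors and latrophilins, had 31.2, 36.6 and 39.6 CPM in Q175 mice, against 25, 27.2 and 31.7 CPM in controls. Of the Q175 libraries 7 of 8 exceeded every control, with a log2 change of 0.36 ± 0.057 (adjusted p = 3.39e-06).

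Sema5a, a transmembrane semaphorin with thrombospondin repeats that can attract or repel, had 78.3, 91.4 and 104 CPM in Q175 mice, against 50.2, 68.6 and 76.9 CPM in controls. The groups did not overlap, and the log2 change was 0.42 ± 0.068 (adjusted p = 8.51e-06). Ephb1, a receptor of B-class ephrins, had 53.9, 62 and 70.5 CPM in Q175 mice, against 44.8, 51.1 and 55.7 CPM in controls. Only its lowest Q175 library fell within the control range, and the log2 change was 0.27 ± 0.048 (adjusted p = 3.1e-05). Plxna2, the plexin that Sema6a binds in migrating granule cells, had 111, 125 and 133 CPM in Q175 mice, against 75, 94.9 and 100 CPM in controls, again with no overlap (log2 change 0.39 ± 0.08, adjusted p = 0.000306).

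Sema7a, the most abundant of the 71 genes, had 131, 158 and 174 CPM in Q175 mice, against 157, 197 and 218 CPM in controls. All 8 Q175 libraries lay below the control median and 3 below every control, and the log2 change was -0.33 ± 0.042 (adjusted p = 5.39e-08), the smallest p among the 71. Ntng1, which encodes netrin-G1, a membrane-anchored relative of the netrins, had 15, 17.8 and 20.3 CPM in Q175 mice, against 18.5, 21.2 and 25.2 CPM in controls. Here 6 of 8 Q175 libraries lay under the lowest control, with a log2 change of -0.3 ± 0.053 (adjusted p = 4.22e-05).

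Sema3f, a secreted semaphorin that acts through neuropilin 2, had 3.9, 5.9 and 7.03 CPM in Q175 mice, against 4.78, 8.42 and 10.9 CPM in controls. The ranges overlapped, although every Q175 library was under the control median, and the log2 change was -0.59 ± 0.12 (adjusted p = 0.000181). Sema4a, a transmembrane semaphorin, had 8.94, 11.9 and 13.7 CPM in Q175 mice, against 10.9, 13.8 and 16 CPM in controls (log2 change -0.3 ± 0.074, adjusted p = 0.00319). It too lay under the control median in 8 of 8 Q175 libraries, and under every control in 3.

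**Figure D2:**
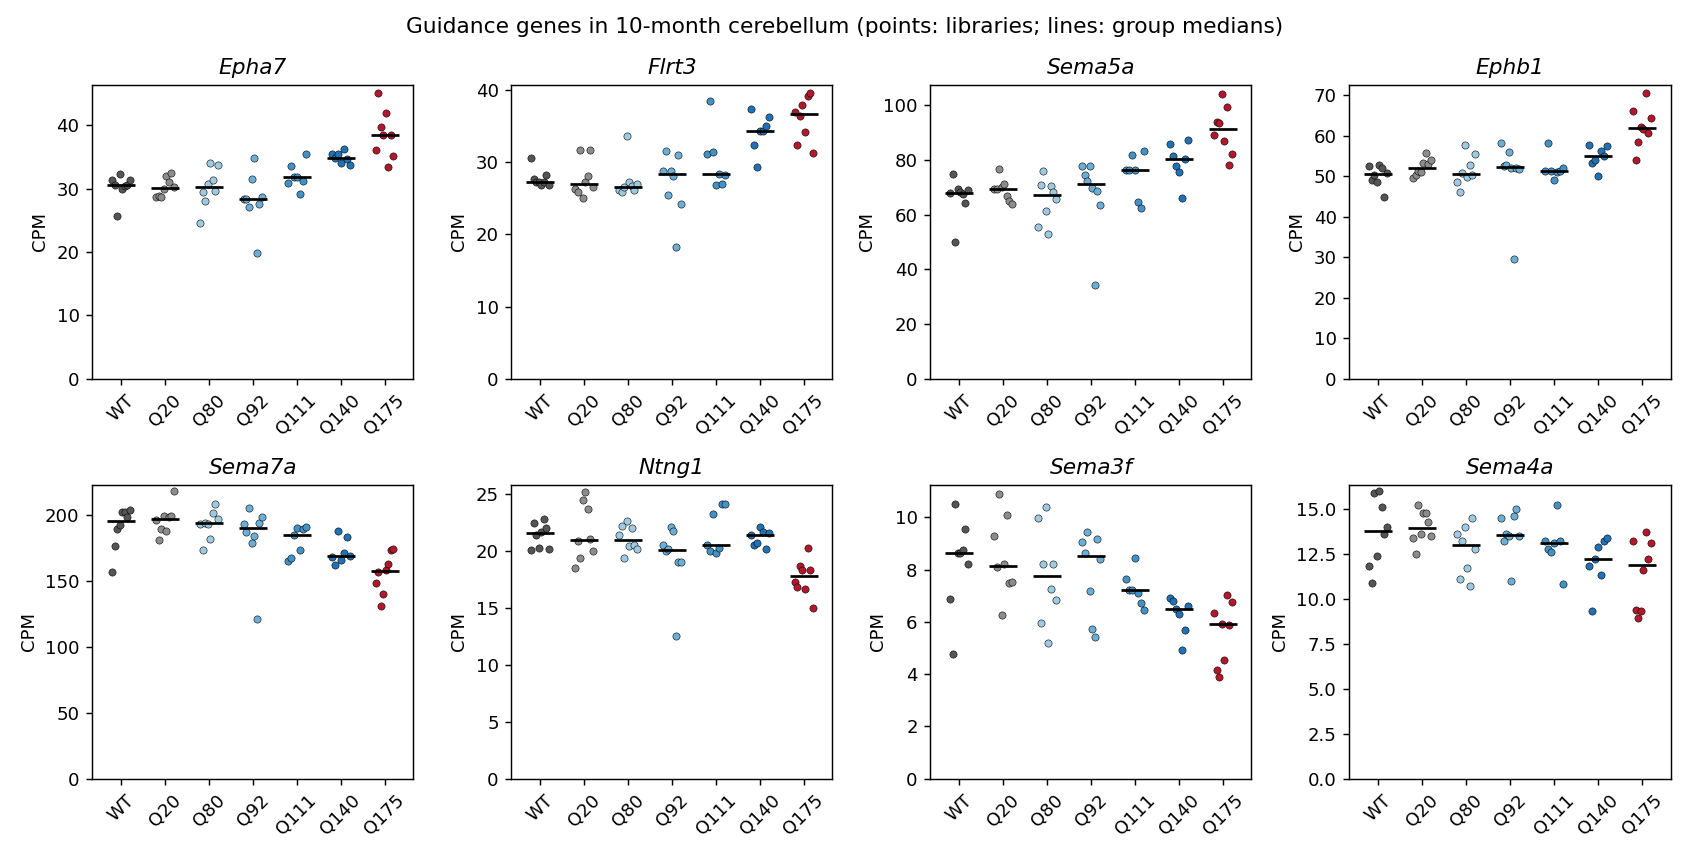
CPM (y axis, from 0) of the 4 guidance genes called higher and the 4 called lower with the smallest p in Q175 against controls, in 10-month cerebellum; points are libraries, lines group medians and the x axis runs from WT to Q175 by CAG length. Epha7 and Sema5a of all 8 Q175 libraries lie above all 16 WT and Q20 libraries, and one Q92 library (M2) is low for most of the 8 genes.

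By family, the semaphorins moved in both directions. Of 20 semaphorins, 3 were higher (Sema5a, Sema3a and Sema6a) and 4 lower (Sema7a, Sema3f, Sema4a and Sema3c), and 13 did not pass the test. Sema3a, the secreted collapsing factor that binds neuropilin 1, rose by 0.28 ± 0.062 on the log2 scale (adjusted p = 9e-04) and Sema6a, a transmembrane ligand of plexins A2 and A4, by 0.21 ± 0.058 (adjusted p = 0.00932). Sema3c fell by 0.3 ± 0.079 (adjusted p = 0.00685). Among the 13 others, Sema3b had a log2 change of -0.72 ± 0.38 (adjusted p = 0.25), and Sema6d, Sema4d, Sema3e, Sema4c and Sema4b each had one between -0.025 and 0.017.

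Of their receptors, Plxna2 was the only plexin of 9 to pass. Plxna1 had a log2 change of 0.19 ± 0.1 (adjusted p = 0.25), and Plxnb3, known from oligodendrocytes, one of 0.018 ± 0.084. Plxnc1, the plexin that binds Sema7a, had a change of 0.12 ± 0.058 (adjusted p = 0.203). Neither neuropilin passed, with -0.088 ± 0.11 for Nrp1 and -0.084 ± 0.073 for Nrp2.

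Among the Eph receptors, Epha7 and Epha3 were higher and Epha2 lower out of 9 of the A class, and Ephb1 was higher out of 5 of the B class. Epha3 rose by 0.25 ± 0.065 (adjusted p = 0.00688). Epha2, at 1.41 to 2.07 CPM in Q175 mice against 1.6 to 3.5 CPM in controls, fell by 0.45 ± 0.15 (adjusted p = 0.0437), a call lost in 19 of 43 alternative fits, with adjusted p of 0.0107 to 0.196 over them. Epha4, the Eph receptor of broadest ligand range, had a log2 change of -0.16 ± 0.076 (adjusted p = 0.185), and -0.18 (adjusted p = 0.00065) without the libraries of low length index. Of 7 ephrins only Efnb3, a transmembrane ligand of EphB receptors, passed, with 47.2, 53.2 and 65.4 CPM in Q175 mice, against 50.7, 60.7 and 71.4 CPM in controls (log2 change -0.21 ± 0.054, adjusted p = 0.00428).

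The Slit ligands split. Slit3 rose by 0.37 ± 0.11 (adjusted p = 0.0212) and Slit2 fell by 0.79 ± 0.27 (adjusted p = 0.0434), while Slit1, with 1.02 to 1.71 CPM in Q175 mice against 0.795 to 5.15 CPM in controls, had a log2 change of -0.49 ± 0.27 (adjusted p = 0.274). Robo1, their receptor, rose by 0.25 ± 0.076 (adjusted p = 0.0222), and Robo2, Robo3 and Robo4 had changes between -0.087 and 0.01. The calls of Slit3 and Robo1 were each lost without 1 library, Q175 M4 for Slit3 and Q175 F2 for Robo1, and both with Q20 alone as controls or by limma on FPKM. Slit2 lost its call in 19 of 43 alternatives, 12 of them leaving out 1 library.

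The Slit2 value moved with markers of several other cell types. Over the 15 control libraries of 10 months without low length index, Slit2 had a Pearson r of 0.817 with the summed meningeal markers and 0.651 with the choroid plexus markers on the log2 scale, beside 0.711 with oligodendrocyte and 0.674 with endothelial markers. Sema3b had 0.894 with the meningeal and 0.929 with the choroid plexus markers. Among the called genes, Efnb3 had the highest r with the summed oligodendrocyte markers, 0.926, and Robo1 and Sema3c had 0.746 and 0.676, while the other called genes apart from Slit2 lay between -0.197 and 0.579. These points share library preparation and depth, and the r is given as a description. The 6 choroid plexus markers summed to 16.8, 256 and 1530 CPM (lowest, median, highest) in Q175 mice, against 32.8, 1210 and 2620 CPM in Q20 and 25.8, 882 and 1910 CPM in WT mice. The 3 meningeal markers, of which none passed (median log2 change -0.226), summed to 57.7, 84.6 and 121 CPM in Q175 mice, against 97.7, 123 and 163 CPM in Q20 and 83, 113 and 126 CPM in WT mice. With the mean of the choroid plexus markers added to the fit, an alternative chosen after seeing the data, Slit2 had a log2 change of -0.43 ± 0.16 (adjusted p = 0.0673).

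Of 4 netrins and netrin-G genes only Ntng1 passed. Ntn4 had a log2 change of 0.11 ± 0.04 (adjusted p = 0.0545) and Ntn1 one of -0.12 ± 0.081. The 5 netrin receptors did not pass at 10 months, and Unc5d came nearest with -0.25 ± 0.094 (adjusted p = 0.0755), which became -0.27 (adjusted p = 2.21e-05) without the libraries of low length index. Flrt3 was called among 3 Flrt genes, while Flrt2 had -0.16 ± 0.072 (adjusted p = 0.165). Counted by role, 4 of 34 ligands were higher and 7 lower, with a median log2 change of -0.00795, and 5 of 34 receptors were higher and 1 lower, with a median of -0.065, where 5.6% of all genes were higher and 7.16% lower. The difference between the roles was not tested.

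**Figure D3:**
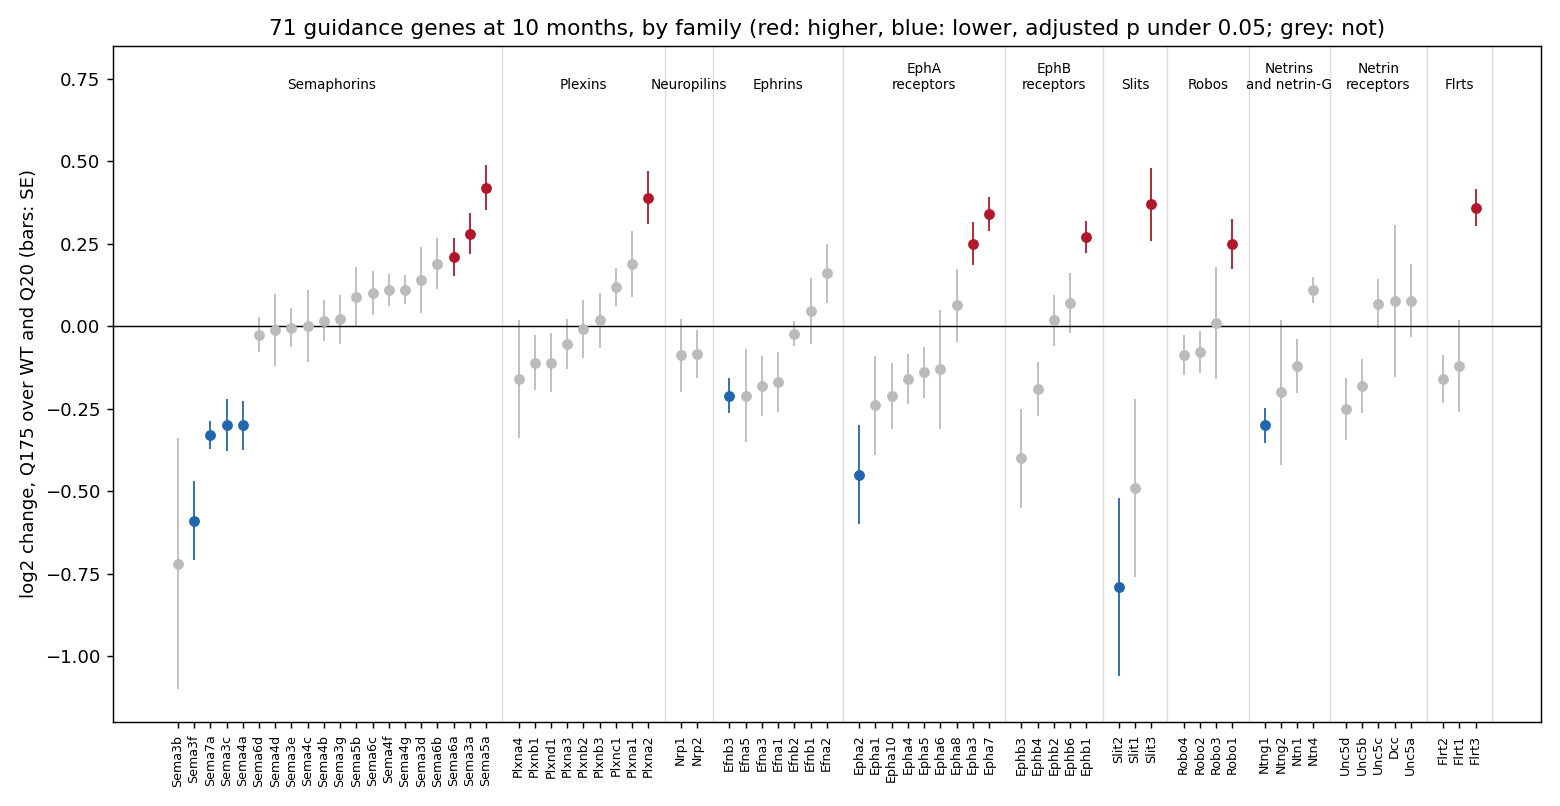
Log2 change of Q175 over controls at 10 months (y axis, with SE as bars) for all 71 guidance genes, grouped by family and ordered within it. Coloured points passed the test, 10 higher and 8 lower, and both colours occur among the semaphorins, the EphA receptors and the Slits.

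Genes that act with these ligands and receptors but fall outside the symbols were described from a list of 63, of which 7 were higher and 6 lower in Q175 mice at 10 months, where 5.6% and 7.16% of all genes were, with a median log2 change of 0.0256. Lrrc4c, whose product is the receptor of netrin-G1, was higher by 0.35 ± 0.045 (adjusted p = 2.76e-08), and Ablim3, an actin-binding protein, by 0.27 ± 0.042 (adjusted p = 2.68e-06). The others that were higher were Lrrc4, Crmp1, Fyn, Evl and Rasa1, with changes of 0.12 to 0.18. Ngef, a RhoA exchange factor that EphA receptors activate, fell by 0.59 ± 0.094 (adjusted p = 5.14e-06). Chn1 and Chn2, which encode Rac-inactivating chimaerins, fell by 0.26 ± 0.05 and 0.28 ± 0.043, and Farp2, Srgap1 and Vav3 were lower as well.

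Cell type markers moved in the same libraries. Of 10 oligodendrocyte markers 7 were lower in Q175 mice at 10 months, and their summed level was 3280, 4010 and 4760 CPM, against 4880, 5400 and 6220 CPM in Q20 and 4280, 5400 and 5740 CPM in WT mice. Lower were also 3 of 6 Purkinje cell markers, 3 of 5 granule cell markers and 3 of 6 Bergmann glia and astrocyte markers, with median log2 changes of -0.206, -0.188 and -0.134. Interneuron markers were lower in 2 of 5 (median -0.143), endothelial and pericyte markers in 1 of 6 (-0.11) and striatal neuron markers in 1 of 3 (-0.341). Of 6 microglial markers 1 was higher (0.0882), and none of 3 oligodendrocyte precursor markers passed (-0.0474). The summed granule cell markers were at 3500 to 3860 CPM in Q175, against 3680 to 4420 CPM in Q20 and 3790 to 4510 CPM in WT mice. None of 6 choroid plexus markers passed, with a median of -1.02. With the mean of the choroid plexus markers in the fit 17 guidance genes passed, where 11.5% of all genes did, and of the 18 above only Slit2 lost its call. What part the other cell types have in the changes of the guidance genes was not tested.

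In Q140 mice at 10 months 3 guidance genes passed, all higher, where 0.635% of all genes tested were called. Leaving out 1 library at a time gave 1 to 7 calls, with 7 without the Q92 library M2 and 1 without any one of Q140 F2, M2 or M3, Q20 F1 or F3, or WT F3 or M4. The shares of all genes in these fits are not given, so the counts are not set against all genes. Q140 and Q175 were set against the same control libraries, so their values are given side by side without a measure of likeness. Flrt3 had 29.3, 34.3 and 37.3 CPM in Q140 mice, against 25, 27.2 and 31.7 CPM in controls (log2 change 0.31 ± 0.06, adjusted p = 0.00207). Sema3a changed by 0.26 ± 0.065 (adjusted p = 0.0388), and Epha7 by 0.21 ± 0.054 (adjusted p = 0.0418), with all 7 Q140 libraries of Epha7 above every control. The call of Flrt3 was kept in all 43 alternatives run, whereas that of Sema3a was lost in 14 and that of Epha7 in 19. Sema7a had a change of -0.16 ± 0.044 (adjusted p = 0.0735) and Sema5a one of 0.25 ± 0.072 (adjusted p = 0.11). Without the libraries of low length index 11 guidance genes passed in Q140, where 2.43% of all genes did. Of 10 oligodendrocyte markers 3 were lower in Q140 mice (median log2 change -0.189), with a sum of 4060 to 4760 CPM, against 4880 to 6220 CPM in Q20 and 4280 to 5740 CPM in WT mice. The part of the oligodendrocytes in these values was not tested. The choroid plexus markers had a median change of -1.24 with none passing. With their mean in the fit 1 guidance gene passed, where 0.345% of all genes did: Flrt3 had a change of 0.28 ± 0.063 (adjusted p = 0.0274), Sema3a one of 0.23 ± 0.07 (adjusted p = 0.186) and Epha7 one of 0.2 ± 0.058 (adjusted p = 0.193).

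No guidance gene passed the edgeR test in Q80, Q92 or Q111 mice at 10 months, where 0%, 0.817% and 0.115% of all genes were called. At an unadjusted p under 0.05 there were 10, 8 and 6 guidance genes in these lines, and DESeq2 and limma also called none. The share of all genes under this unadjusted limit is not given, here or below, so such counts are not set against all genes. Read along the lines from WT to Q175, the median of Flrt3 was 27.2, 26.9, 26.6, 28.3, 28.3, 34.3 and 36.6 CPM. The largest step between these medians lay between Q111 and Q140. That step was not tested, and Flrt3 spanned 26.8 to 38.5 CPM in Q111 and 29.3 to 37.3 CPM in Q140. Sema5a had medians of 68.1, 69.3, 67.2, 71.1, 76.3, 80.3 and 91.4 CPM in the same order. Sema7a had 195, 197, 194, 190, 185, 169 and 158 CPM, and Sema3f 8.63, 8.15, 7.74, 8.52, 7.22, 6.49 and 5.9 CPM. The neighbouring lines overlapped in each of these genes.

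Ntng1 had no such order up to Q140. Its medians were 21.5, 21, 20.9, 20.1, 20.5 and 21.4 CPM from WT to Q140, and 17.8 CPM in Q175. In the direct comparison of Q175 with Q140, where 2.49% of all genes were called, it was the one guidance gene to pass, with 15 to 20.3 CPM in Q175 against 20.2 to 22.1 CPM in Q140 mice (log2 difference -0.28 ± 0.062, adjusted p = 0.00443). Limma on FPKM did not call it. Without the libraries of low length index 5 guidance genes passed, where 7.44% of all genes did: Ntng1 (-0.28 ± 0.058), Plxna2 (0.18 ± 0.046, adjusted p = 0.00692), Sema7a (-0.16 ± 0.043, adjusted p = 0.00946), Ephb1 (0.17 ± 0.045, adjusted p = 0.0118) and Sema5a (0.17 ± 0.052, adjusted p = 0.029). Leaving out 1 library at a time gave 1 to 3 calls, with 3 without the Q92 library M2, and the shares of all genes in these fits are not given. At 2 months Ntng1 had a median of 22 CPM in Q175 and 21.9 CPM in WT mice, and at 6 months 20.9 CPM in Q175 and 21.5 CPM in WT mice.

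At 6 months 13 guidance genes differed between Q175 mice and controls, 7 higher (9.86% of the 71, where 2.07% of all genes were) and 6 lower (8.45%, where 2.45% were). At this age the labels name the WT and Q175 libraries in a different format from the others. The fit has a term for this library set, which in effect sets Q175 against WT. Leaving out those of low length index gave 22, 11 in each direction, where 12.6% of all genes were called. With the index as a covariate there were 24, where 2187 of the 16525 genes tested were called. Higher were Flrt3, Epha7, Sema3a, Sema5a, Ephb1, Epha3 and Plxnc1, and lower were Epha2, Sema7a, Efnb3, Epha1, Robo4 and Sema4a. Flrt3 had 32.6, 35.3 and 39.4 CPM in Q175 mice, against 22.7, 26.9 and 31.7 CPM in WT mice (log2 change 0.39 ± 0.069, adjusted p = 9.14e-05). Sema5a had 77.1, 81.4 and 88.9 CPM in Q175 mice, against 57.4, 62.3 and 68.2 CPM in WT mice (0.41 ± 0.1, adjusted p = 0.00442). Both were without overlap.

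Sema7a at 6 months had 159, 169 and 184 CPM in Q175 mice, against 199, 201 and 222 CPM in WT mice, again without overlap (log2 change -0.27 ± 0.061, adjusted p = 0.00268). Epha2 fell by 0.81 ± 0.17 (adjusted p = 0.00143). Plxnc1 rose by 0.25 ± 0.069 (adjusted p = 0.0196), Epha1 fell by 0.61 ± 0.16 (adjusted p = 0.0107), and Robo4, the Robo of endothelial cells, fell by 0.27 ± 0.071 (adjusted p = 0.0154). Without a WT library, F4 or M2, the call of Robo4 was lost, and that of Plxnc1 was lost without Q175 F2 or M3 or WT F2 or F4. That of Sema4a was lost without Q175 F2 or WT F1. Of 6 endothelial and pericyte markers 1 was lower in Q175 mice at 6 months, and of 10 oligodendrocyte markers 6, with a sum of 3240 to 4370 CPM in Q175 mice, against 4660 to 5520 CPM in WT mice. Of 5 granule cell markers 2 were lower (median log2 change -0.253), with a sum of 3780 to 4060 CPM in Q175 mice, against 4210 to 4920 CPM in WT mice, and of 6 Bergmann glia and astrocyte markers 1. The part of these cell types was not tested.

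The mice of different ages are separate animals with separate controls. Of the 18 genes called at 10 months, 17 had the same sign at 6 months (94.4%, beside 96.2% of the 2110 genes of any kind called at 10 months) and 10 were also called there with that sign (55.6%, beside 27.4% of the 2110). The exception in sign was Sema3c. At 2 months 17 of the 18 had the sign of 10 months, with Ntng1 as the exception, beside 77% of the 2110 genes. Some of these changes were small beside their SE, such as 0.0062 ± 0.059 for Ephb1 and -0.02 ± 0.18 for Epha2. Without the libraries of low length index both changed sign, to -0.012 ± 0.06 for Ephb1 and 0.031 ± 0.16 for Epha2. The share of the 2110 genes that kept the sign without those libraries is not given. With all libraries the changes of the 18 at 2 months ran from -0.53 ± 0.38 for Slit2 and -0.2 ± 0.13 for Sema3f to 0.19 ± 0.072 for Flrt3, with 0.12 ± 0.085 for Epha7 and -0.03 ± 0.053 for Sema7a. No guidance gene passed at 2 months in Q175 mice by edgeR, where 0.00605% of all genes were called (2 at an unadjusted p under 0.05, none by DESeq2 or limma).

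**Figure D4:**
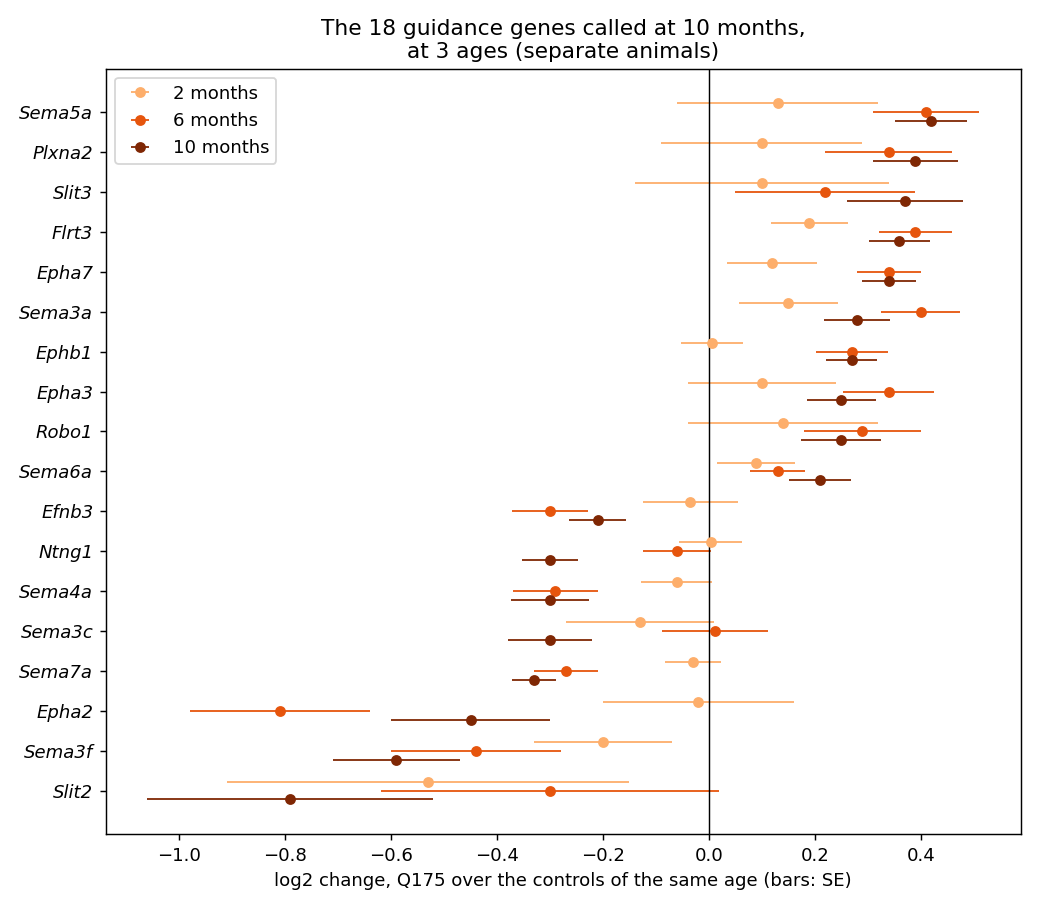
Log2 change of Q175 over the controls of the same age (x axis, with SE as bars) at 2, 6 and 10 months for the 18 guidance genes called at 10 months. Sema5a stands at 0.41 at 6 and 0.42 at 10 months, and Ntng1 at -0.06 at 6 and -0.3 at 10 months.

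In the other lines no guidance gene was called at 2 or 6 months by edgeR, DESeq2 or limma. The shares of all genes called were 0% in Q80, 0.0424% in Q92, 0% in Q111 and 0% in Q140 at 2 months, and 0% in Q80, 0% in Q92, 0.0182% in Q111 and 0.0363% in Q140 at 6 months. At an unadjusted p under 0.05 there were 1, 8, 0 and 0 guidance genes in Q80, Q92, Q111 and Q140 at 2 months, and 8, 2, 20 and 12 at 6 months. Without the Q92 library M3 of 6 months, 8 guidance genes were called in Q111, all higher. Of all genes 2.61% were called higher there and 5.78% lower. The same fit called 1 guidance gene in Q140, where 0.454% of all genes were called. At 6 months the library set term in effect sets these lines against Q20, of which 2 libraries had a low length index. Without all libraries of low length index 0 guidance genes were called in Q111 and 0 in Q140. The median log2 change of the guidance genes in Q111 was 0.121 with them and 0.039 without.

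When CAG length entered as a number and the slopes of 6 and 10 months were combined, 26 guidance genes passed. The 14 with a rising slope are 19.7% of the 71, where 7.62% of all genes rose, and the 12 with a falling slope are 16.9%, where 9.4% fell. When the libraries of low length index were left out, 15 rose (21.1%, where 14.9% of all genes did) and 25 fell (35.2%, where 15% did). Flrt3 had the largest Z, 7.7, followed by Sema5a with 7.14 (without those libraries Sema5a led with 8.67, before Flrt3 with 7.77), Epha7 with 7.08, Sema3a with 6.57 and Ephb1 with 6.45. Robo1 (Z = 5.27), Plxna2 (5.21), Epha3 (5.06), Plxnc1 (4.4) and Sema6a (4.02) rose as well. The most negative were Sema7a with -5.59, Efnb3 with -5.12, Epha2 with -4.97, Sema4a with -4.68 and Sema3f with -4.23, and Efna3, Ephb4, Slit2, Flrt2 and Ephb3 had Z between -3.27 and -2.78. Per 100 CAG at 10 months the slope was 0.23 ± 0.036 for Flrt3, 0.24 ± 0.041 for Sema5a and -0.17 ± 0.027 for Sema7a on the log2 scale.

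Most of these slopes were not called without the Q175 mice. Of all 16525 genes tested, 2813 passed with these mice and 152 without them. At 6 months WT is then alone in its library set and no longer bears on the slope, so this leaves out both groups at that age. With Q175 left out, 6 guidance genes (8.45%) still passed in the combination, all rising, where 95 of all genes rose and 57 fell. The 6 were Flrt3 (Z = 4.54), Sema5a (4.21), Robo1 (3.91), Sema3a (3.81), Ephb1 (3.59) and Epha7 (3.52), with adjusted p between 0.00191 and 0.0476. Sema7a had Z = -1.14 (adjusted p = 0.785) and Plxna2 Z = 2.5 (adjusted p = 0.286) in that fit.

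The slope at 10 months differed from that at 2 months for 1 guidance gene, where 0.52% of all genes passed. Sema7a had a difference of -0.17 ± 0.038 per 100 CAG (adjusted p = 0.0111). Its median was 183, 169 and 158 CPM at 2, 6 and 10 months in Q175 mice, against 186, 201 and 195 CPM in WT mice. Ephb1 came next with 0.15 ± 0.042 (adjusted p = 0.0677). Limma on FPKM called neither. Leaving out the libraries of low length index, 4 guidance genes passed, where 2.28% of all genes did: Sema7a (-0.19 ± 0.035), Plxna2 (0.17 ± 0.038, adjusted p = 0.00433), Sema5a (0.16 ± 0.041, adjusted p = 0.0185) and Ephb1 (0.14 ± 0.04, adjusted p = 0.047). Without those of low connectivity, a large summed distance to the other libraries of the age, 5 did. The share of all genes in that fit is not given, so this count is not set against all genes.

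In controls alone, 25 guidance genes differed between 10 and 2 months, 20 higher at 10 months (28.2% of the 71, where 16.2% of all genes were) and 5 lower (7.04%, where 22.6% were). The library numbers in the labels run in a separate block for each of these ages. Age therefore cannot be told apart from a difference between the blocks. Without the 2 libraries whose sex-linked genes went against the label, 15 were higher (21.1%) and 6 lower (8.45%), where 2547 and 3570 of all genes were. The direction depended on the libraries of low length index, of which 4 were WT at 2 months: without them 15 were higher (21.1%, where 16.2% of all genes were) and 11 lower (15.5%, where 17.7% were). With that index as a covariate 6 were higher (8.45%, where 11.5% were) and 10 lower (14.1%, as for all genes, 14.1%). Sema5a was higher at 10 months, with 50.2, 68.6 and 76.9 CPM, against 21.8, 50.3 and 60.1 CPM at 2 months (log2 change 0.55 ± 0.1, adjusted p = 0.000242, and 0.39 ± 0.027 without those libraries). Unc5d, Plxnd1 and Efna5 were higher by 0.41 ± 0.086, 0.26 ± 0.055 and 0.61 ± 0.14, and kept their calls in all 9 alternatives. Plxnc1, Sema3c, Robo1, Sema3a, Robo2 and Flrt3 were higher too, and each lost its call with the length index as a covariate.

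The 5 that were lower at 10 months were Efna2, Sema5b, Sema4c, Efna1 and Sema6b. Efna2, an ephrin-A ligand, had 2.7, 3.51 and 5.07 CPM at 10 months, against 3.31, 4.81 and 6.14 CPM at 2 months (log2 change -0.4 ± 0.076, adjusted p = 0.000297), and was lower in all 9 alternatives. Sema5b, the close relative of Sema5a, changed by -0.28 ± 0.068 (adjusted p = 0.00227), without a call by limma on FPKM. All 6 microglial markers were higher in controls at 10 months, with a median log2 change of 0.364, as were 3 of 6 endothelial markers (1 lower) and 2 of 5 interneuron markers. Lower were 3 of 5 granule cell markers (median -0.167), 3 of 6 Purkinje cell markers (-0.0695) and 4 of 10 oligodendrocyte markers (1 higher), and of 6 Bergmann glia and astrocyte markers 2 were higher and 2 lower. Their part in these values was not tested.

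Between males and females at 10 months no guidance gene passed by edgeR, where 0.363% of all genes did. There were 6 at an unadjusted p under 0.05, and DESeq2 and limma called none. Without the libraries of low length index, where 0.756% of all genes passed, 1 guidance gene, Sema7a, was higher in males (log2 difference 0.1 ± 0.023, adjusted p = 0.0155), a gene named here after its values were seen.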

How the data were processed

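Poly(A) RNA of 166 cerebella was sequenced. The authors deposited expected counts per gene, which need not be whole numbers (83.3% were), and FPKM values. The submitters' processing notes name CASAVA 1.8.2, while for the aligner, counting program, genome build and strand setting a name was not given in the sources used here. Thus reads shared by similar, overlapping or antisense genes may be split in ways that are unknown. No unmatched column was used or left over (0 columns).

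Counts were rounded and scaled to CPM by the column sum. Genes with at least 0.5 CPM in at least 8 libraries were tested per age with edgeR 4.0.16 under R 4.3.3 (a two-sided quasi-likelihood F-test after TMM scaling, with p-values adjusted by Benjamini-Hochberg over 16525 genes and a threshold of 0.05), with sex as a covariate and, at 6 months, the library set. WT and Q20 were pooled. SE is the absolute log2 change over the square root of F. CAG slopes used 7 for WT and the label's length otherwise, are per 100 CAG, and the Z values of 6 and 10 months were added and scaled by the square root of their number. The slopes of 10 and 2 months were compared by an interaction term. DESeq2 1.42.0, limma 3.58.1 on log2(FPKM + 0.1), other controls, covariates, filters, left-out libraries and a replicate block were alternatives. The length index of a library is the slope, over genes, of its log2 CPM relative to the gene's median on log2 merged exon length (GENCODE vM21). Its limit of -0.06 was set after the index had been seen.

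Genes named in full were the 4 higher and 4 lower with the smallest p for Q175 at 10 months; other named genes were up to 15 higher and 15 lower there, up to 10 and 10 at 6 months, in the combined slopes, the slope difference and with age, up to 8 and 8 elsewhere, and the 10 of highest FPKM in WT. Values of uncalled genes, and the pathway genes named, were added after being seen. The members and lists were chosen with earlier results of these data known. Scripts were tested on simulated data. The closest pair of libraries of a group still differed by 3.83 times the counting variance, so none was taken as a repeat of another. The libraries of a group are labelled as separate samples, and p-values measure the spread between them. Promoter sequences are those of RefSeq on GRCm38.p6, where a gene with several entries is shown at the one nearest its GENCODE start.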

Additional observations from a re-analysis of the deposited data

Results flagged for a closer look

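A test for a single stray library was run for the 8 genes given in full in Q175, Q20 and WT mice of 10 months, 24 groups in all, of which chance alone would flag about 1 in 20. It picked out 3, all in WT mice: the library F3 for Epha7 (25.7 CPM) and for Sema5a (50.2 CPM), each the lowest of its group, and the library F1 for Flrt3 (30.6 CPM), the highest of its group. The WT library F3 is among those of low length index, and without these libraries Epha7 had a log2 change of 0.33 and Sema5a one of 0.39 in Q175 mice.

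Sema7a was picked out because its CAG slope differed between ages, by -0.17 per 100 CAG for 10 minus 2 months, and Ntng1 because Q175 and Q140 mice of 10 months differed, by -0.28 on the log2 scale. In both cases the difference itself was tested.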

How the results depend on the processing

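For the genes named in the main comparisons, 2781 of 2938 values under alternative settings kept direction and call, 157 lost the call and 0 changed sign. These genes were picked from the main fit, and many of the values come from fits that leave out a single library. Losses were more frequent in some settings. Without Q175 14 values lost the call and 6 kept it, without WT 7 and 13, and by limma on FPKM 16 and 55. The counts of guidance genes moved more, and the counts of all genes moved as well. For Q175 at 10 months 18 guidance genes and 2110 of all genes were called in the main fit. Without the libraries of low length index these were 30 and 4327, with that index as a covariate 27 and 4097, and without those of low connectivity 24 and 3905. Counts below that have no count or share of all genes, here or above, are not set against all genes. Leaving out all libraries of low length index gave 30 calls for Q175 and 11 for Q140 at 10 months, 22 for Q175 at 6 months, 5 for Q175 against Q140, 1 for sex, 31 for the slope of 10 months, 4 for the slope difference between ages and 40 for the combined slopes. With the length index as a covariate there were 8 for Q140, 5 for Q175 against Q140, 1 for sex, 24 for Q175 and 20 for the slope at 6 months, 3 for the slope difference and 16 for age. Without the libraries of low connectivity (a large summed distance to the others of their age) there were 9 for Q140, 4 for Q175 against Q140, 1 for sex, 22 for Q175 at 6 months and 5 for the slope difference. DESeq2 gave 5 for Q140, 2 for Q175 against Q140 and 2 for the slope difference, and limma gave 1, 0 and 0. No filter on low counts gave 1 for Q140 and 16 for age, WT alone or Q20 alone as controls gave 1 for Q140, and the choroid plexus covariate, chosen after seeing the data, gave 1 for Q140 and 2 for Q175 against Q140. Without the library set as a covariate 1 gene was called in Q111 at 6 months. Without Q175 the slopes gave 0 at 10 and 0 at 6 months and 6 combined, and without WT 0 at 6 months and 17 combined. Of all genes 152 were called in the combined slopes without Q175 and 1486 without WT. As WT and Q175 make up 1 library set at 6 months, leaving out either takes both out of that slope. The combined slopes split into 15 rising and 23 falling with the length covariate, where 2433 of all genes rose and 2499 fell.

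Single libraries were left out in 32 fits at 10 months (all of Q175, Q20, WT and Q140, and Q92 M2) and 25 at 6 months (all of Q175, Q20 and WT, and Q92 M3), and those of the other lines were not. This gave 15 to 25 calls for Q175 and 1 to 7 for Q140 at 10 months, 1 to 3 for Q175 against Q140, 0 to 1 for sex, 14 to 24 for the slope of 10 months, 11 to 16 for Q175, 0 to 1 for Q140 and 0 to 8 for Q111 at 6 months, and 22 to 29 for the combined slopes. Without Q92 M2 there were 7 for Q140 at 10 months, 3 for Q175 against Q140 and 1 for sex. For the fits of 10 months that leave out 1 library the shares of all genes are not given. Without any one of Q140 F2, M2 or M3, Q20 F1 or F3, or WT F3 or M4 there was 1 for Q140. Without any one of Q175 M3 or M4, Q140 M1 or WT F1 there were 2 for Q175 against Q140. Without Q92 M3 of 6 months there were 8 for Q111 and 1 for Q140 at that age. Without all libraries of low length index there were 0 for each. The replicate numbers did not pair the samples: over the 8 pairs of Q175 and WT at 10 months r lay between -0.483 and 0.272, and 1 Q175 library correlated best with its own number. With a replicate block there were 16 calls for Q175 at 10 and 13 at 6 months, 4 for Q140, 23 for the combined slopes and 23 for age. Sex could not be tested with the block. At 6 months WT alone could be used only for Q175 and Q20 alone only for the other lines. Low genes limit the precision: 0.5 CPM stood for as few as 11.7 counts.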
